A study of Mus musculus with 12 samples.

Results

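Dppa5a, Ooep and Khdc3 are 3 mouse genes whose proteins carry a KH-type domain and that are read in the oocyte, the early embryo or pluripotent cells. They were taken by gene symbol from 3 deposited RNA-seq tables of embryonic stem cells, and make up 3 of the 19996 genes listed for serum medium and for overexpression and 3 of the 19718 listed for 2i medium. Each symbol matched 1 row in every table. The genes were selected on their FPKM in these same libraries and its differences between the groups, so their levels and differences are given as a description and carry no p-value.

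The KH domain is an RNA-binding fold, and in this family it has diverged and also serves contacts between proteins. Ooep, also called Floped, and Khdc3, also called Filia, are maternal effect genes: their proteins sit in the subcortical maternal complex, an assembly under the surface of the oocyte and early embryo that also holds Nlrp5 and Tle6 and is needed for the first cleavages. Khdc3 is also known for a role in genome stability in mouse embryonic stem cells. Dppa5a, also called Esg1, encodes an RNA-binding protein used as a marker of pluripotent cells and is dispensable for their self-renewal.

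The series measured polyadenylated RNA in 12 libraries, 6 groups of 2, and asked how embryonic stem cells respond to loss and to gain of Foxd3, a transcription factor with a forkhead DNA-binding domain that is active in pluripotent cells and neural crest. Foxd3-/- cells are Foxd3fl/fl;Cre-ER cells given 4-hydroxytamoxifen at 2 µM for 3 days, which activates the recombinase, and are called deleted here. Their Foxd3fl/fl counterparts carry the same floxed alleles and Cre-ER without the drug and are called floxed. Both were grown in serum and leukemia inhibitory factor on irradiated embryonic fibroblast feeders (SL: Knockout-DMEM with 15% fetal bovine serum), and both in serum-free N2B27 with leukemia inhibitory factor, PD0325901 at 0.4 µM against MEK and CHIR99021 at 3 µM against GSK3 (2i), for which no feeders are named. The tetON Foxd3 cells carry Foxd3 under doxycycline control and were compared with wild-type (WT) LF2 cells. The protocol gives doxycycline at 1 µg/µl for 3 days, both groups are labelled with it, and both were grown without feeders in Knockout-DMEM with 15% serum and leukemia inhibitory factor. No group analysed here received tamoxifen without the floxed alleles or held tetON cells without doxycycline, and neither the number of clones nor the origin of the 2 replicates of a group is stated, so the spread between libraries may be technical.

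In the SL deleted libraries Foxd3 itself averaged 1.72 ± 0.154 FPKM, against 4.67 ± 0.200 in SL floxed libraries, and in tetON Foxd3 libraries it averaged 51.6 ± 2.18, against 12.3 ± 2.52 in WT libraries (SD, n = 2 each). For SL the authors list a mean of 358.56 Foxd3 reads in deleted libraries, against 680.97 in floxed libraries, a signed fold of -1.9. In 2i Foxd3 did not follow the label: libraries labelled Foxd3-/- averaged 2.26 ± 0.265 FPKM, against 2.47 ± 0.0658 in floxed libraries. The authors' deposited table lists a mean of 376.17 reads, against 221.19, for the same 2i groups. The 2i libraries are therefore named by their label throughout, and a direction drawn from them is a direction by label. FPKM corrects the number of fragments for transcript length and for the size of the library, so levels in FPKM can be compared between genes. The number of genes with at least 1 FPKM was 11033 to 11919 per library, and the authors' mean reads summed to 24278900 to 54096100 per group, lowest in 2i. The pluripotency markers fixed for the check, among them Pou5f1, Sox2 and Nanog, summed to at least 1201 FPKM in every library.

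In the GRCm38 build (GENCODE M21 annotation) all 3 genes lie on chromosome 9, but not side by side. Dppa5a (ENSMUSG00000060461, chr9:78367052-78368177, minus strand, 1 transcript of 3 exons and 619 bases) and Ooep (ENSMUSG00000032346, chr9:78376109-78378725, minus strand, 1 transcript of 3 exons and 2138 bases) are 7.93 kb apart. Khdc3 (ENSMUSG00000092622, chr9:73101836-73104438, plus strand, 4 transcripts of 619 to 1681 bases) lies 5.26 Mb before Dppa5a. Rab27a, a small GTPase of vesicle transport, ends 4.21 kb before Khdc3, and Ddx43, an RNA helicase of the germ line, starts 17.1 kb after Ooep. The annotation also holds Dppa5b and Dppa5c, unprocessed pseudogenes whose transcripts of 348 bases match Dppa5a at 318 of 340 aligned bases, or 93.5%. Neither has a row in the tables, so reads from them could have been counted as Dppa5a, and its absolute level is uncertain to that extent.

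RefSeq promoters, which hold the sequence around the start of transcription where the motif of a forkhead factor can be looked for, matched Ooep and Khdc3, 2 of the 3 genes. The RefSeq start of Ooep lies 137 bases inside the GENCODE gene, and that of Khdc3 is the start of 2 of its 4 GENCODE transcripts, 1 of which begins 562 bases earlier. Shown are the bases of the 250 before the RefSeq start that lie in no GENCODE exon of the gene, 113 for Ooep and 193 for Khdc3. They are RefSeq sequence of GRCm38.p6, written 5′ to 3′ on the gene's own strand, and hold no capitals because none of the motifs searched was found.
Ooep (chr9:78378726-78378838, minus strand): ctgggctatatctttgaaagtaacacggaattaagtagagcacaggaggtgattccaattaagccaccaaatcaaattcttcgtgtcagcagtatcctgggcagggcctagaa
Khdc3 (chr9:73102205-73102397, plus strand): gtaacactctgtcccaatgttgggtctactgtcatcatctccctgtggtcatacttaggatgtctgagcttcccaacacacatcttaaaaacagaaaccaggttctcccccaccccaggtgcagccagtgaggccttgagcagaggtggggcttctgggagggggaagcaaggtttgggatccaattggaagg
The search covered all 250 bases before the RefSeq start and the next 50, on both strands, for the forkhead motif GTAAACA, the octamer ATGCAAAT, the Esrrb motif AAGGTCA and the Klf motif GGGTGTG. Of all 32851 promoters of 300 bases in the same table, 3.65% hold the first, 1.74% the octamer, 4.72% the Esrrb motif and 7.95% the Klf motif. The absence of these letters in 300 bases says nothing about binding elsewhere or in other letters. The guanine and cytosine content of the 300 bases was 58.3% for Ooep and 52.7% for Khdc3, beside a median of 52.7% over all promoters.

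Dppa5a was among the most abundant RNAs of these cells in all 6 groups. SL deleted libraries had 924.4 and 853.5 FPKM, against 861.1 and 728.6 in SL floxed libraries. The 2i libraries labelled Foxd3-/- had 1541 and 1394 FPKM, against 1380 and 1295 in 2i floxed libraries. The tetON Foxd3 libraries had 462.1 and 562.6 FPKM, against 1384 and 1252 in WT libraries. Both 2i groups and WT were high, both SL groups were lower and the tetON Foxd3 libraries stood lowest with no overlap with any other group. By rank of FPKM in its library, Dppa5a was gene 5 and gene 8 in the 2i libraries labelled Foxd3-/-, and gene 140 and gene 119 in the tetON Foxd3 libraries.

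Ooep was read at a far lower level: mean FPKM of Dppa5a was 29.0 to 63.6 times that of Ooep, depending on the group. It had 15.7 and 12.2 FPKM in SL deleted libraries, against 14.5 and 10.5 in SL floxed libraries. It had 50.7 and 48.9 FPKM in 2i libraries labelled Foxd3-/-, against 32.7 and 36.2 in 2i floxed libraries. In tetON Foxd3 libraries it had 11.04 and 11.96 FPKM, against 52.6 and 38.3 in WT libraries. WT and both 2i groups were again high, while the SL groups and tetON Foxd3 formed a low set in which tetON Foxd3 overlapped SL floxed but not SL deleted libraries.

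Khdc3 was the most variable of the 3. It had 29.6 and 19.7 FPKM in SL deleted libraries, against 12.5 and 9.07 in SL floxed libraries. It had 17.2 and 19.4 FPKM in 2i libraries labelled Foxd3-/-, against 32.4 and 32.7 in 2i floxed libraries. In tetON Foxd3 libraries it had 0.643 and 1.51 FPKM, against 17.7 and 12.7 in WT libraries. The groups of each of these pairs did not overlap, and in tetON Foxd3 libraries Khdc3 had rank 12228 and 10994, around the last of the 11532 to 11655 genes that reached 1 FPKM there.

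**Figure D1:**
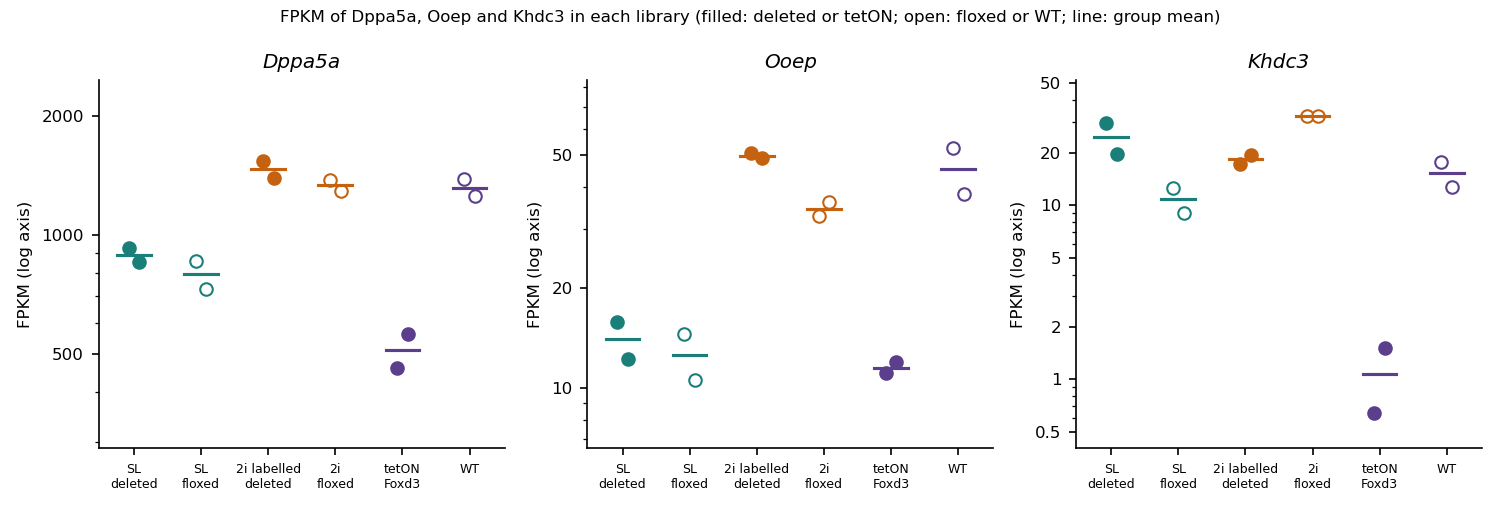
FPKM (log axis) of Dppa5a, Ooep and Khdc3 in each of the 12 libraries, 1 panel per gene; filled points are deleted or tetON Foxd3 libraries, open points floxed or WT libraries, and lines are group means of 2 libraries. The tetON Foxd3 points are the lowest for Dppa5a and Khdc3 and overlap the SL floxed points for Ooep, and the order of the filled and open points of Khdc3 in 2i is opposite to that in SL.

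The order of the groups differed between the genes. For Dppa5a it ran 2i labelled Foxd3-/- (1468 ± 104 FPKM), 2i floxed (1337 ± 60.2), WT (1318 ± 93.3), SL deleted (889 ± 50.2), SL floxed (795 ± 93.7) and tetON Foxd3 (512 ± 71.1; SD, n = 2 each), where 2i floxed overlapped WT and SL deleted overlapped SL floxed. For Ooep it ran 2i labelled Foxd3-/- (49.8 ± 1.26), WT (45.5 ± 10.1), 2i floxed (34.5 ± 2.45), SL deleted (14.0 ± 2.48), SL floxed (12.5 ± 2.81) and tetON Foxd3 (11.5 ± 0.647). Here the first overlapped WT, and each of the last 3 overlapped its neighbour in the order. For Khdc3 it ran 2i floxed (32.6 ± 0.188), SL deleted (24.6 ± 6.94), 2i labelled Foxd3-/- (18.3 ± 1.53), WT (15.2 ± 3.51), SL floxed (10.8 ± 2.44) and tetON Foxd3 (1.08 ± 0.615). Only 2i labelled Foxd3-/- and WT overlapped as neighbours in that order.

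The highest group mean was 2.86 times the lowest for Dppa5a, 4.33 times for Ooep and 30.2 times for Khdc3. These levels cross tables that the authors may have normalised separately. After median-of-ratios scaling over all 12 libraries (14391 genes), the 2i floxed libraries had size factors of 0.867 and 0.857, against 0.992 to 1.07 in the others. The order of the means of Ooep and of Khdc3 stayed as given, but overlaps changed. For Ooep WT then overlapped 2i floxed, and tetON Foxd3 overlapped SL deleted libraries. For Khdc3 SL deleted then overlapped 2i labelled Foxd3-/-, which no longer overlapped WT. For Dppa5a 2i floxed libraries then averaged 1551, ahead of 1462 in 2i libraries labelled Foxd3-/-, and the 2 groups overlapped. The ratio of Dppa5a to Ooep was close to equal in SL deleted and SL floxed libraries (63.6 and 63.6) and lower in 2i labelled Foxd3-/-, 2i floxed and WT libraries (29.5, 38.8 and 29.0). In tetON Foxd3 libraries, where all 3 were low, Dppa5a was read at 44.6 times Ooep and 475 times Khdc3, against 29.0 and 86.6 times in WT libraries.

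Deletion in SL was accompanied by more Khdc3 RNA, while the libraries of the 2 groups overlapped for Dppa5a and Ooep. Khdc3 averaged 24.6 FPKM in SL deleted libraries, against 10.8 in SL floxed libraries, a ratio of 2.28 and a difference of 1.11 in log2(FPKM + 1) with an SE of 0.23. Only 50 of the 12024 genes that passed a mean of 1 FPKM in at least 1 group had a larger positive difference. Dppa5a differed by 0.16 (SE 0.11) and Ooep by 0.15 (SE 0.19), beside a median of -0.01 over all genes, and in both the libraries of the 2 groups overlapped. Within each replicate number the deleted library was the higher one for both genes. Dppa5a had 924.4 against 861.1 and 853.5 against 728.6 FPKM, and Ooep 15.7 against 14.5 and 12.2 against 10.5. Whether libraries of the same number are true pairs is not stated, so the overlap does not show that the 2 genes were unchanged. The Ooep difference was -0.02 without SL deleted replicate 1 and -0.06 without SL floxed replicate 2, and 0.15 with replicate number in the fit. Replicate 1 had more Ooep than replicate 2 in both groups, so leaving out 1 library also changes the mix of replicate numbers. Of the 3 genes 1 had groups with no overlap, and over all genes 37% did, with 19.7% higher and 17.3% lower in deleted libraries. The limma test across all genes called 1 of 12024 (0.00832%), the imprinted gene Peg10, and at the unadjusted p of the same threshold 730 were higher and 367 lower.

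Other cell type markers moved in SL as well. Over all genes tested in SL, 19.7% were higher and 17.3% lower without overlap, the background for each count that follows. The 12 fibroblast markers summed to 492 to 523 FPKM in SL deleted libraries, against 305 to 381 in SL floxed libraries, with 10 of 12 higher without overlap. Of those that define the type, Col1a1 had 45.0 to 48.0 against 26.5 to 37.5 FPKM, Col1a2 47.7 to 50.8 against 27.1 to 35.99 and Col3a1 9.64 to 10.3 against 7.23 to 7.37, while Dcn and Lum were at or under 0.606 in every library. The 6 trophectoderm markers summed to 38.5 to 51.9 against 14.4 to 17.0, with 4 higher without overlap. The 6 primordial germ cell markers summed to 153 to 187 against 74.2 to 96.7, with 5 higher without overlap. Of that sum Dppa3 alone averaged 103 against 56.5 FPKM, and Tfap2c is in both lists. The 4 markers of 2-cell-like cells found, of 6 listed, summed to 9.17 to 16.3 against 4.09 to 4.17, all 4 higher without overlap. The 5 primitive endoderm markers summed to 2.20 to 3.13 against 1.99 to 2.13, with 2 higher without overlap. The 4 later germ cell markers were lower, at 37.7 to 49.0 against 63.0 to 64.7, with 3 lower without overlap. Their part in the Khdc3 difference was not tested. In bulk RNA more or fewer cells that hold a transcript cannot be told apart from more or less of it per cell.

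In 2i the genes went apart by label. Khdc3 was lower in libraries labelled Foxd3-/-, at 18.3 FPKM against 32.6 in 2i floxed libraries, a log2 difference of -0.80 (SE 0.07). Ooep was higher, at 49.8 against 34.5 FPKM, a difference of 0.52 (SE 0.07). Dppa5a differed by 0.13 (SE 0.06), which is under the median of 0.19 over all 11637 genes. All 3 had groups with no overlap, as had 85.3% of all genes in 2i (58.7% higher, 26.6% lower), so this count reads as background. Khdc3 lay further out than most of them: 313 of the 11637 genes had a lower difference.

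The 2i values depend on the scaling, since 5573 genes were called higher and 2291 lower (67.6% of 11637 in all), and 3509 higher and 3921 lower after median-of-ratios scaling. With that scaling Khdc3 differed by -1.02, Ooep by 0.30 and Dppa5a by -0.09. The authors' deposited table lists a fold of -2.17 for Khdc3, 1.24 for Ooep and -1.09 for Dppa5a. The direction of Khdc3 and of Ooep was thus the same on each scale, and that of Dppa5a was not. Fibroblast markers summed to 338 ± 7.88 FPKM in 2i libraries labelled Foxd3-/-, against 312 ± 17.6 in 2i floxed libraries. Without overlap, 6 of the 12 were higher and 2 lower, beside 58.7% and 26.6% of all genes. Of those that define the type, Col1a1 had 7.57 to 8.06 against 3.23 to 3.63 FPKM, Col1a2 3.23 to 3.50 against 1.28 to 1.34 and Col3a1 0.679 to 0.744 against 0.153 to 0.316, with Lum at 0 in all 4 libraries. The pluripotency markers summed to 1530 to 1633 against 1201 to 1242, and the markers of 2-cell-like cells to 1.01 to 1.27 against 0.0381 to 0.0816. Trophectoderm markers summed to 57.1 to 65.3 against 31.7 to 32.8, and primordial germ cell markers to 347 to 349.5 against 284 to 289.7. Most of the latter sum was Dppa3, at a mean of 255 against 231 FPKM. Primitive endoderm markers summed to 3.18 to 3.19 against 1.24 to 1.35, and later germ cell markers to 46.7 to 47.5 against 54.9 to 62.1. The part of these shifts in the values of the 3 genes was not tested.

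All 3 genes were lower in tetON Foxd3 libraries than in WT libraries, and none of their libraries overlapped. Dppa5a averaged 512 FPKM in tetON Foxd3 libraries, against 1318 in WT libraries, a log2 difference of -1.37 (SE 0.12), and WT libraries had 2.57 times as much. For Ooep the difference was -1.88 (SE 0.17), with 3.95 times as much in WT libraries. Khdc3 had the largest difference, -2.98 (SE 0.27), with 14.1 times as much in WT libraries. Of 11972 genes tested, 120 had a lower difference than Dppa5a, 42 than Ooep and 9 than Khdc3, beside a median of 0.03 over all genes. Groups did not overlap in 52.3% of all genes, 29.5% higher and 22.8% lower, and the limma test called 316 genes (2.64%).

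The authors' own fold changes give the same directions. Their deposited table lists folds of -2.53 for Dppa5a, -4.0 for Ooep and -15.38 for Khdc3 in tetON Foxd3 against WT, the last from a mean of 26.76 reads against 411.51. The Khdc3 difference depends on the pseudocount because the tetON Foxd3 level is near 1 FPKM: it was -3.79 with 0.1 added in place of 1. Summed markers of other early cell types were lower in these libraries too. The 4 markers of 2-cell-like cells found, of 6 listed, summed to 0.857 to 0.923 FPKM in tetON Foxd3 libraries. In WT libraries they summed to 6.93 to 9.58, and all 4 were lower without overlap in tetON Foxd3 libraries. The 6 primordial germ cell markers summed to 41.0 to 45.2 against 74.8 to 78.6, with 4 lower without overlap. The 6 trophectoderm markers summed to 12.7 to 19.0 against 27.7 to 32.7, with 1 lower without overlap, beside 22.8% of all genes. Pluripotency markers summed to 2223 to 2824 against 2565 to 2617, which overlap. Fibroblast markers summed to 82.9 to 113 against 56.1 to 72.5. Without overlap, 2 of these 12 were higher and 3 lower, beside 29.5% and 22.8% of all genes. Col3a1 and Lum were at 0 in all 4 libraries, and Col1a1 at 0.244 to 0.497 against 0.587 to 0.720. Primitive endoderm markers summed to 2.64 to 2.66 against 3.23 to 5.81, with 1 of 5 lower without overlap. Later germ cell markers summed to 99.9 to 115 against 63.0 to 101, which overlap. Their part in the lower levels was not tested.

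**Figure D2:**
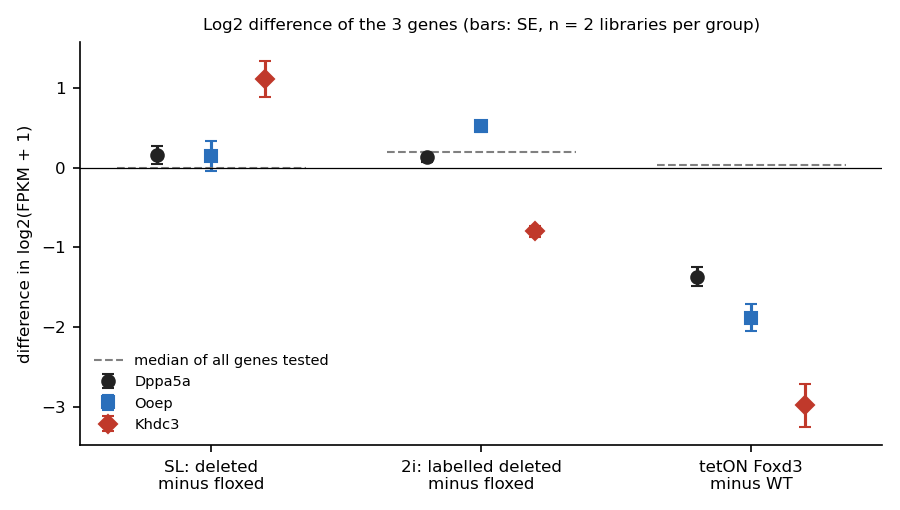
Difference in log2(FPKM + 1) of the 3 genes in each comparison, with bars of 1 SE (n = 2 libraries per group) and a dashed line at the median of all genes tested. Khdc3 sits at 1.11 in SL, -0.80 in 2i and -2.98 in overexpression, while Dppa5a and Ooep lie near the dashed line in SL and at -1.37 and -1.88 in overexpression.

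Khdc3 therefore had opposite signs in SL and 2i, without overlap in either medium, as had 1051 of the 11130 genes tested in both (9.44%). Higher in SL deleted, lower in 2i labelled Foxd3-/- and lower in tetON Foxd3 libraries, with no overlap in any comparison, held for 71 of 10926 genes (0.65%), among them Khdc3 and its neighbour Rab27a. The 3 comparisons share no library, but the pattern counted is that of Khdc3 itself, a gene selected on these values. Khdc3 had to be among the 71, so the share is no test of it.

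The other oocyte and maternal effect genes were mostly near 0 in these cells. Of 26 listed, 23 are in the tables, and 5 passed the filter in SL, 7 in 2i and 7 in overexpression. Nlrp5, the partner of Ooep and Khdc3 in the subcortical maternal complex, averaged at most 0.104 FPKM in any group, while Tle6, another member of that complex, was read at 5.23 to 11.0 FPKM. In overexpression 0 of 7 passed the limma threshold in either direction, beside 0.994% of all genes higher and 1.65% lower, with a median of -0.43 and 4 of 7 lower without overlap, beside 22.8% of all genes. Nlrp4f, an oocyte gene of the same family as Nlrp5, averaged 5.17 ± 1.75 FPKM in tetON Foxd3 libraries, against 11.1 ± 1.42 in WT libraries (SD, n = 2 each, limma adjusted p = 0.0888), and it passed without tetON Foxd3 replicate 2 (limma adjusted p = 0.0375). Tcl1, a co-activator of Akt found in oocytes and stem cells, had 105 ± 2.41 against 141 ± 4.47 (limma adjusted p = 0.0590). Of the 7 genes 5 had a difference below 0 and 2 above it. Tle6 averaged 5.52 ± 2.33 against 6.24 ± 0.0203 FPKM and its groups overlapped. The 2 above 0, Zbed3 (0.19) and Zp3 (0.03), overlapped as well.

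In 2i 4 of the 7 oocyte genes rose and 2 fell by label, beside 47.9% and 19.7% of all genes. Tle6 averaged 11.0 ± 1.84 FPKM in libraries labelled Foxd3-/-, against 7.32 ± 0.0385 in 2i floxed libraries (log2 difference 0.52, limma adjusted p = 0.00334), and Tcl1 85.0 ± 0.0991 against 52.2 ± 0.452 (0.69, limma adjusted p = 1.73e-05). Nlrp4f and Nlrp9b rose by 0.45 and 0.37. Zp3, a protein of the egg coat, fell by 0.53, and Zbed3, tied to the maternal complex, fell by 0.36. Without 2i labelled deleted replicate 1, Zbed3 did not pass (limma adjusted p = 0.124). After scaling 3 of 6 rose and 2 fell, Nlrp9b having dropped under the filter.

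In SL 0 of the 5 oocyte genes tested passed, beside 0.00832% of all genes, with a median of 0.05 beside -0.01 over all genes. Nlrp9b averaged 2.67 ± 1.35 FPKM in SL deleted libraries, against 0.430 ± 0.0147 in SL floxed libraries (limma adjusted p = 0.203), and it passed without SL deleted replicate 2 (limma adjusted p = 5.26e-06). Its 2 deleted libraries had 3.62 and 1.71 FPKM.

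The Dppa-named genes share a name with Dppa5a, given for expression in pluripotent cells, and not its protein family. Dppa2 and Dppa4 encode SAP-domain proteins that act together at chromatin, and Dppa3, also called Stella, is a maternal factor that protects DNA methylation in the zygote and is also 1 of the 6 primordial germ cell markers above. Of 7 listed relatives and Dppa-named genes 4 are in the tables and these 3 passed the filter in each comparison. The fourth, Khdc1a, a KH relative, averaged at most 0.159 FPKM in any group. In overexpression all 3 tested fell, beside 1.65% of all genes, with a median of -1.35.

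Dppa3 averaged 2.02 ± 0.00281 FPKM in tetON Foxd3 libraries, against 10.7 ± 1.09 in WT libraries (log2 difference -1.95, limma adjusted p = 0.0145). Dppa2 averaged 16.6 ± 2.77 against 43.5 ± 1.76 (-1.35, limma adjusted p = 0.0222), and Dppa4 28.7 ± 1.51 against 49.8 ± 0.892 (-0.78, limma adjusted p = 0.0295). These calls rest on few libraries. Dppa3 alone passed without WT replicate 1 (limma adjusted p = 0.0361) or WT replicate 2 (0.0432), and Dppa4 did not pass without tetON Foxd3 replicate 1 (0.0534) or replicate 2 (0.0525). With no filter on low values none of the 3 passed.

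In 2i all 3 rose by label, beside 47.9% of all genes, with a median of 0.90 beside 0.19 over all genes. Dppa2 averaged 18.5 ± 2.44 FPKM in libraries labelled Foxd3-/-, against 5.50 ± 0.138 in 2i floxed libraries (log2 difference 1.58, limma adjusted p = 1.08e-05), and Dppa4 54.5 ± 0.817 against 28.7 ± 0.291 (0.90, limma adjusted p = 9.31e-06). Dppa3 rose by 0.14 (limma adjusted p = 0.0266) but differed by -0.08 after scaling and did not pass there (limma adjusted p = 0.169), nor without 2i labelled deleted replicate 1 or 2 or without 2i floxed replicate 2. In SL none of the 3 passed, beside 0.00832% of all genes, with a median of 0.55 beside -0.01 over all genes. Dppa3 averaged 103 ± 14.6 FPKM in SL deleted libraries, against 56.5 ± 18.0 in SL floxed libraries (limma adjusted p = 0.264). Dppa2 and Dppa3 passed there without SL deleted replicate 2.

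**Figure D3:**
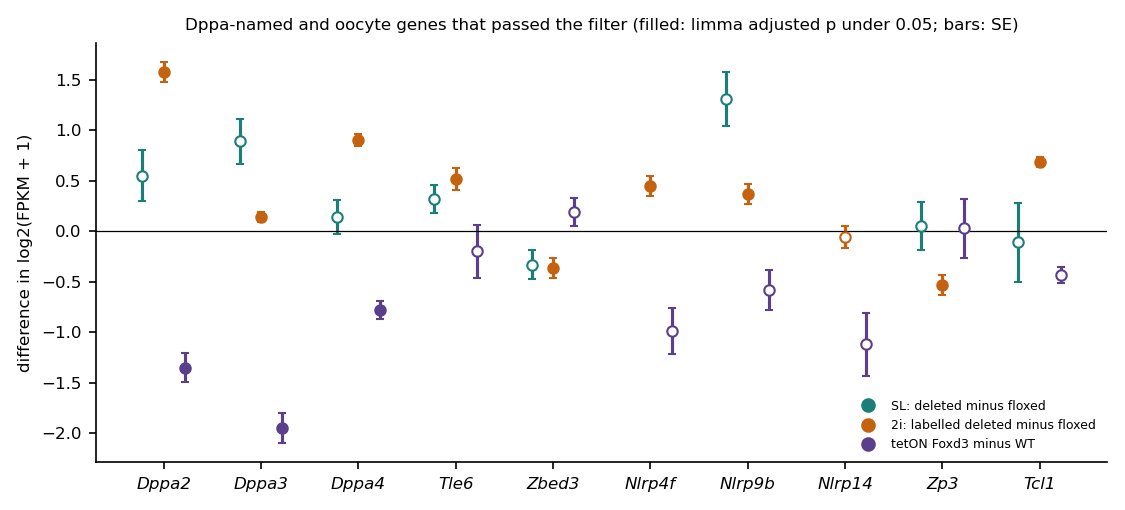
Difference in log2(FPKM + 1), with bars of 1 SE, of the Dppa-named and oocyte genes that passed the filter in at least 1 comparison; filled points passed the limma threshold over all genes, and a missing point is a gene under the filter there. Dppa2, Dppa3 and Dppa4 are filled and below 0 in overexpression, and no point is filled in SL.

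Within 500 kb of Khdc3, 9 other genes were tested, and within 500 kb of Dppa5a or Ooep 10 were. In overexpression 1 of the 9 and 0 of the 10 passed, beside 0.994% of all genes higher and 1.65% lower. Without overlap, 1 was higher and 2 lower around Khdc3, and 2 were higher and 5 lower around Dppa5a and Ooep, beside 29.5% and 22.8% of all genes. The gene that passed was Rab27a, which had 2.44 and 1.81 FPKM in tetON Foxd3 libraries, against 8.03 and 6.80 in WT libraries (log2 difference -1.43, limma adjusted p = 0.0298). It did not pass without WT replicate 1 (limma adjusted p = 0.111) or WT replicate 2 (0.0626), nor with no filter on low values (0.0863). Rsl24d1, a ribosome biogenesis factor that starts 11.6 kb from the start of Khdc3 on its other side, differed by -0.23 (limma adjusted p = 0.403).

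Ddx43, next to Ooep, averaged 3.70 ± 0.283 FPKM in tetON Foxd3 libraries, against 7.65 ± 1.49 in WT libraries (limma adjusted p = 0.0684). Mb21d1, the DNA sensor also called Cgas, averaged 0.395 ± 0.0435 against 1.38 ± 0.0821 (limma adjusted p = 0.0702). Eef1a1, a translation elongation factor whose row also carries a second symbol, differed by 0.09.

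In 2i 5 of the 9 genes around Khdc3 rose and 2 fell, and of the 10 around Dppa5a and Ooep Gsta2 and Slc17a5 rose and Cd109, Eef1a1 and Elovl5 fell, beside 47.9% of all genes higher and 19.7% lower. After scaling 4 of 9 rose and 3 fell around Khdc3, and 1 of 9 rose and 6 fell around Dppa5a and Ooep, beside 30.3% and 33.8% of all genes. Dyx1c1, 1 of the 5, did not pass with any of the 4 libraries left out. Elovl5 did not pass without 2i labelled deleted replicate 1 or 2i floxed replicate 2, and Gsta2 was not called without 2i labelled deleted replicate 2 or 2i floxed replicate 2. Rab27a averaged 3.13 ± 0.226 FPKM in libraries labelled Foxd3-/-, against 4.67 ± 0.653 in 2i floxed libraries (log2 difference -0.45, limma adjusted p = 0.00738), while Pigb, an enzyme of membrane anchor synthesis between Rab27a and Ccpg1, rose by 0.58 (limma adjusted p = 0.000299). In SL 0 of the 9 and 0 of the 10 passed, beside 0.00832% of all genes. Rab27a averaged 5.85 ± 0.267 FPKM in SL deleted libraries, against 3.51 ± 0.0579 in SL floxed libraries (log2 difference 0.60, limma adjusted p = 0.230), and Gcm1, a trophoblast transcription factor, 1.89 ± 0.395 against 0.315 ± 0.0261 (1.13, limma adjusted p = 0.154). Gcm1 passed without SL deleted replicate 2. Over the whole span of chromosome 9 from Khdc3 to Ooep, with 500 kb on either side, 0 of 33 genes tested passed in SL, beside 0.00832% of all genes. Over that span 10 of 31 rose and 8 fell in 2i, beside 47.9% and 19.7%, and 0 of 32 rose and 1 fell in overexpression, beside 0.994% and 1.65%.

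**Figure D4:**
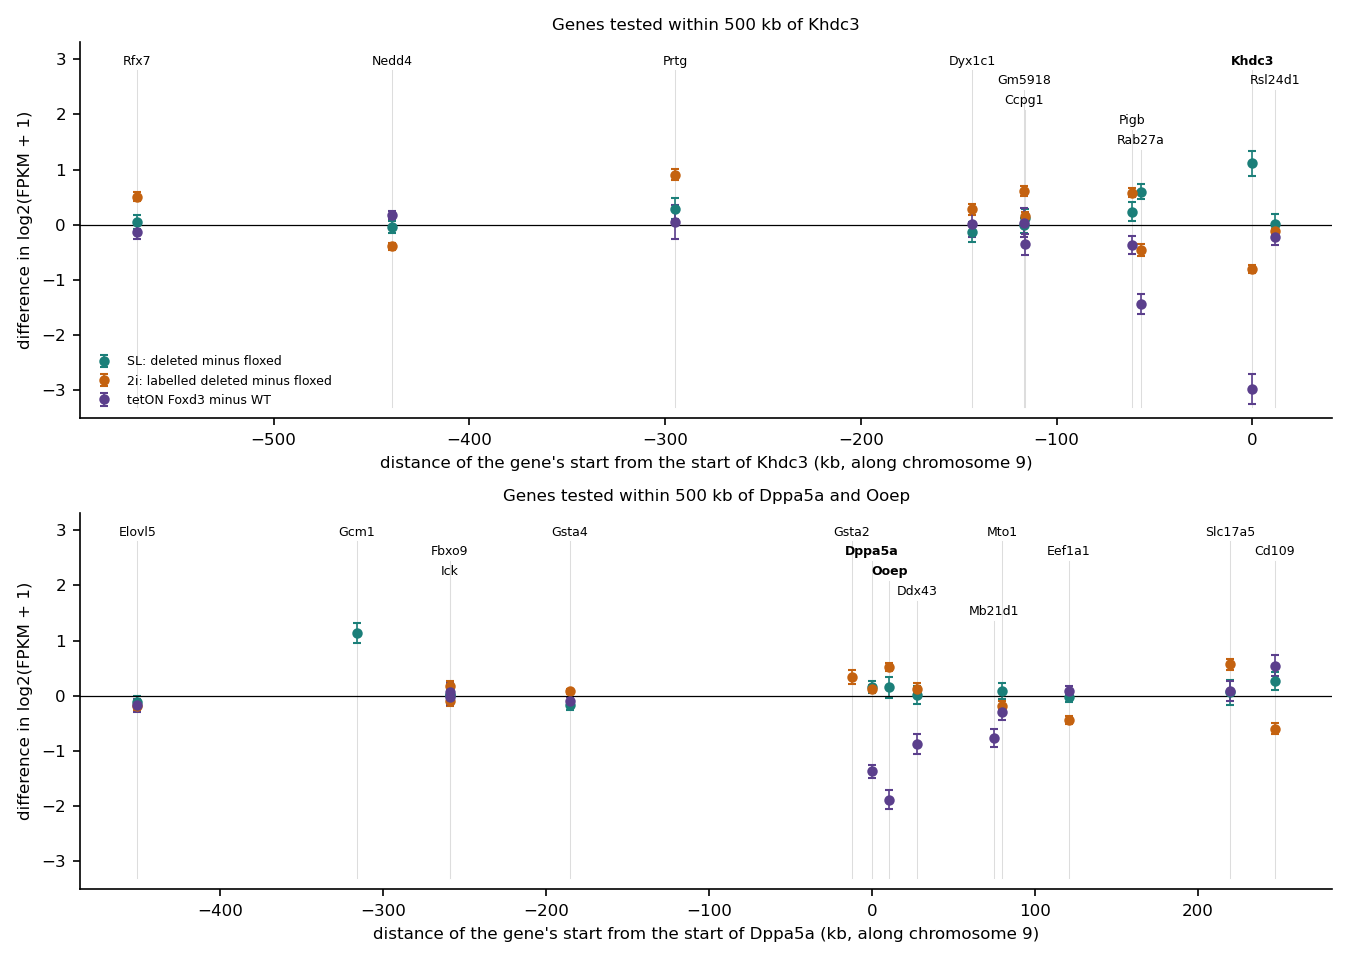
Difference in log2(FPKM + 1), with bars of 1 SE, of genes tested within 500 kb of Khdc3 (upper panel) and of Dppa5a and Ooep (lower panel), by the distance in kb of each gene's lower end from that of the named gene. Rab27a has the signs of Khdc3 in all 3 comparisons (0.60, -0.45 and -1.43), and the genes beyond Ooep lie closer to 0 in overexpression than Ooep itself.

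Over the 12 libraries, with log2(FPKM + 1) centred within each comparison, Dppa5a and Ooep had Pearson's r of 0.968, Dppa5a and Khdc3 0.910 and Ooep and Khdc3 0.834. The libraries fall into few groups, so these values largely repeat the group differences above and carry no p. Among 10138 candidate genes the patterns most like Dppa5a were those of Krt17 (0.978), a keratin, Ddx19b (0.976), an RNA helicase of mRNA export, and Xlr4a (0.976), an X-linked lymphocyte-regulated gene. Krt17 averaged 6.88 ± 3.73 FPKM in tetON Foxd3 libraries, against 41.5 ± 0.556 in WT libraries.

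The patterns most like Ooep were those of Igf2bp2 (0.984), an RNA-binding protein with KH domains of its own, Zbtb32 (0.978), a zinc finger repressor, and Etv4 (0.971), an ETS transcription factor. Igf2bp2 averaged 13.0 ± 0.139 FPKM in tetON Foxd3 libraries, against 49.1 ± 13.0 in WT libraries, and 77.0 ± 3.22 in 2i libraries labelled Foxd3-/-, against 62.4 ± 0.592 in 2i floxed libraries. Those most like Khdc3 were Fermt3 (0.971), an integrin-binding kindlin, Rhox1 (0.969), a reproductive homeobox gene, and Alg13 (0.967), of protein glycosylation, while Rab27a had rank 8 in that order (0.952). Rhox1 averaged 1.76 ± 0.578 FPKM in SL deleted libraries, against 0.827 ± 0.243 in SL floxed libraries, and 3.07 ± 0.335 in tetON Foxd3 libraries, against 11.6 ± 1.18 in WT libraries. Without the centring r was 0.907 for Dppa5a and Ooep, 0.829 for Dppa5a and Khdc3, 0.547 for Ooep and Khdc3 and 0.666 for Rab27a and Khdc3, where Rab27a had rank 407, and 0 of the 3 nearest genes were shared with these lists for each of the 3 genes.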

How the data were processed

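RNA was measured by sequencing in 12 libraries. Per the submitters' processing notes the authors used FastQC, TopHat2, SAMtools, Cufflinks and DESeq2 with GRCm38 and mm10; no versions are stated there. The authors deposited 1 table per comparison with FPKM per library, per the file headers. The deposited tables also hold a mean read signal per group, a signed fold score and an unadjusted p-value, made by the authors, per the file headers; the signal has no spread, so single-library depth is unknown. A table's medium was read from its name.

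Each comparison was fitted alone: limma 3.58.1 (R 4.3.3) with a trend on log2(FPKM + 1), genes with a mean of at least 1 FPKM in 1 group, Benjamini-Hochberg adjustment over all genes tested, 2-sided, threshold 0.05. Differences on this scale understate changes of low genes. The same fit was also run on simulated data. The 3 genes and the lists were chosen with earlier results of these data known. Oocyte and Dppa-named genes were to be named by adjusted p, up to 5 per list and comparison. In 2i all 6 oocyte genes called are named, and in overexpression also genes that did not fall or overlapped. The neighbour list spans 6.28 Mb because Khdc3 is far away (47 genes in the tables), so names were limited to a 500 kb window. Likeness used Pearson's r over 12 libraries. Alternatives were another pseudocount, no filter, median-of-ratios scaling, a replicate block, each library left out and the authors' values. Promoters are RefSeq's.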

Additional observations from a re-analysis of the deposited data

Results flagged for a closer look

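Of the 41 genes tested in both media among the 3 genes and the listed genes, 6 met the following pattern: every deleted library lay on one side of the floxed libraries in SL and every labelled deleted library on the opposite side in 2i; the difference between media was not tested. By label, Khdc3 differed by 1.11 in SL and -0.80 in 2i, which lie 1.91 apart on the log2 scale. Its neighbour Rab27a differed by 0.60 and -0.45, or 1.06 apart. Cd109, a cell surface protein gene beyond Ooep, differed by 0.27 and -0.60, or 0.87 apart. The other 3 had the opposite signs: Gclc (-0.09 and 0.19, a value of -0.28 for SL minus 2i), Gsta4 (-0.16 and 0.08, -0.24) and Lysmd2 (-0.27 and 0.18, -0.44). Opposite directions without overlap were found in 9.44% of all genes tested in both media.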

How the results depend on the processing

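Of 72 recomputed differences of the 3 genes 68 had the same sign and 4 turned, and 8, among them 2 of the 4, moved by at least 1 SD of the replicates. In SL Ooep ranged from -0.06 to 0.37 with a library left out, with -0.02 without SL deleted replicate 1. With the replicate block Ooep differed by 0.15 there. In 2i median-of-ratios scaling gave -0.09 for Dppa5a, 0.30 for Ooep and -1.02 for Khdc3, and the authors' deposited folds -0.12, 0.31 and -1.12 as log2 values. In overexpression Khdc3 was -3.79 with a pseudocount of 0.1 and -3.94 from the authors' fold. The highest to lowest ratio of Dppa5a was 3.14 after scaling over 12 libraries, and 0 of the 3 most alike genes of Dppa5a, Ooep and Khdc3 were shared without centring.

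Numbers of called genes moved most. The main fit did not pair libraries by replicate number. Over genes, same-numbered deviations correlated at 0.605 in SL and 0.596 in overexpression, and at -0.0539 in 2i. Libraries of the same number thus deviated alike in SL and overexpression but not in 2i. With 2 pairs per comparison, and no origin stated for the replicates, whether they were true pairs cannot be decided. With the replicate block 1997 genes were called in SL, 7566 in 2i and 2473 in overexpression; in SL 3 oocyte genes, 2 Dppa-named genes and 5 chromosome 9 neighbours, and in overexpression 4 oocyte genes and 7 neighbours, were called. The authors' p-values, adjusted here, called 107 genes in SL with 1 neighbour (Gcm1), and 909 in overexpression with 1 oocyte gene (Nlrp4f) and 4 neighbours (Bcl2l10, Ddx43, Mb21d1 and Rab27a). With no filter 0 genes were called in overexpression, hence 0 Dppa-named genes and 0 neighbours. Leaving out a library gave 1 to 313 called genes in SL (313 without SL deleted replicate 2) and 42 to 342 in overexpression (42 without WT replicate 1, 90 without WT replicate 2, 144 without tetON Foxd3 replicate 1). The oocyte list then had 0 to 1 called in SL and 0 to 1 in overexpression, the Dppa-named list 0 to 2 and 1 to 2, and the neighbours 0 to 1 and 0 to 1. The cause was not tested. With 2 libraries a group a p that misses the threshold does not show that levels were alike.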
